A study of Mus musculus with 4 samples.

Results

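The 10 G-protein-coupled receptors described here were grouped as lipid, metabolite and orphan receptors, though Gpr65 senses protons. They are Gpr83, Ffar2, Gpr15, Gpr18, Gpr183, Gpr65, Gpr132, S1pr1, S1pr4 and P2ry10. Their RNA was measured in mouse regulatory T cells with and without Nrp1 (neuropilin-1) on the cell surface. The 10 genes were chosen by name from receptor families with the Nrp+ and Nrp- values of these same arrays known, so their Nrp+ minus Nrp- values are described here and not tested. Together they have 14 probe sets listed with that gene alone, 4 genes with 2 probe sets and 6 genes with 1. All 10 had a probe set past the filter on low values and stand among the 10192 genes tested, and 13 of the 14 probe sets passed it.

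Total RNA came from spleen CD4+ cells that the labels call Foxp3+, after the transcription factor of regulatory T cells, and from a strain given as Balb/c Foxp3 GFP for all 4 samples. How the cells were separated is not given in the labels. Of the 4 arrays, 2 hold Nrp+ cells from mice of 4 to 6 weeks and 2 hold Nrp- cells, from mice of 4 to 8 weeks for replicate 1 and 4 to 6 weeks for replicate 2. The source name and cell type of the array titled Nrp- replicate 1 read Nrp+, while its title reads Nrp-. Its title was followed, and the differences within replicate number 2 do not use that array.

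These receptors span the membrane and pass signals to heterotrimeric G proteins, which act on cyclic AMP and calcium. In lymphoid tissue, gradients of sphingosine-1-phosphate and of oxysterols guide lymphocytes through S1pr1 and Gpr183, and receptors for bacterial fatty acids and for protons report on the cells' surroundings. Several members are known as regulatory T cell genes or have been studied in the gut.

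The arrays were first set against their labels. The Nrp1 probe set of highest level had intensities of 9344 and 7745 in Nrp+ replicates 1 and 2, against 339 and 1223 in Nrp- replicates 1 and 2, and the array with conflicting labels was the lowest of the 4. Cd3d, a T cell receptor subunit, lay between 20377 and 23975 on all arrays, and 7 of 8 T and regulatory T cell markers passed the filter. Foxp3 itself did not pass, at 2.16 and 19.9 in Nrp+ cells and 4.45 and 36.4 in Nrp- cells. Il2ra, Ctla4, Ikzf2 and Tnfrsf18 of the same list passed. They ran from 2602 for Il2ra in Nrp- replicate 2 to 19030 for Ikzf2 in Nrp+ replicate 1. Why Foxp3 was low was not tested. Both arrays numbered 1 had been scaled to one trimmed mean and both numbered 2 to another, so arrays of 1 replicate number share a processing setting. The labels name no batch. Markers of neutrophils summed to 14029 and 40707 in Nrp+ replicates 1 and 2 and to 11786 and 43266 in Nrp- replicates 1 and 2, with all 5 measured markers past the filter. The 6 markers of monocytes and macrophages, all past the filter, summed to 2340 and 10420 in Nrp+ cells and to 1569 and 11318 in Nrp- cells in the same order. Both sums were higher on the Nrp+ array in replicate 1 and on the Nrp- array in replicate 2. Xist, the RNA made from the inactive X chromosome, had a highest probe set at 83.2 in Nrp+ replicate 1 and 13630 in Nrp+ replicate 2. In Nrp- replicates 1 and 2 that probe set stood at 4083 and 13058. It thus differed between replicates in both groups, and between groups far more in replicate 1 than in replicate 2. Any difference between the mice of Nrp+ and Nrp- replicate 1 cannot be told apart from the group there. In bulk RNA, fewer cells of a kind and less RNA per cell cannot be told apart.

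The promoters of the 3 receptor genes with the lowest mean Nrp+ minus Nrp- differences are printed, since the results turn on these genes. Each runs from 250 bases before to 50 bases after the gene's start, 5′ to 3′ on the gene's strand, from RefSeq on GRCm38.p6. Of the 10 members, 9 matched the promoter table. Capitals mark matches on either strand to a short motif.
Ffar2, the first of its 4 listed starts, chr7:30823726-30824025, minus strand: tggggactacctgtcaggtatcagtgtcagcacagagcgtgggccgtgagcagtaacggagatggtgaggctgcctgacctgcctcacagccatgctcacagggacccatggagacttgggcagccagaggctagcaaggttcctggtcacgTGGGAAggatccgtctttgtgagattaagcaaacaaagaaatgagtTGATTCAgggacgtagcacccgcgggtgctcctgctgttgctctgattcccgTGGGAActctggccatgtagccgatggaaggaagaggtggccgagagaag
Gpr18, chr14:121915839-121916138, minus strand: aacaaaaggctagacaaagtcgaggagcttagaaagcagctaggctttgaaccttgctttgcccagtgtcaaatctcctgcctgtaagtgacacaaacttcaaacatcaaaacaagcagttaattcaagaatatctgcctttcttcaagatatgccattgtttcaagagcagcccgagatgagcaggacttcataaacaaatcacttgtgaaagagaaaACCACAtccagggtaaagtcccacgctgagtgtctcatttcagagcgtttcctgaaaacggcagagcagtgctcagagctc
Gpr183, chr14:121965144-121965443, minus strand: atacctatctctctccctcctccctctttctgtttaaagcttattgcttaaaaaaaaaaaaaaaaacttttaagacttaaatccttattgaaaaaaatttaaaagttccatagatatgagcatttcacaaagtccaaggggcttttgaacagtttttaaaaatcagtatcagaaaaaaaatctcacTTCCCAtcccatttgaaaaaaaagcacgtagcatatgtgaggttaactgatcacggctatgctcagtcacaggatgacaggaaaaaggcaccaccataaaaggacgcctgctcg

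Gpr18 and Gpr183 are next to each other among the protein-coding genes of chromosome 14 in RefSeq on GRCm38.p6, the source of every neighbour named here, and lie on the same strand. The motifs were searched on both strands: AP-1 (TGANTCA), the cyclic AMP response element (TGACGTCA), forkhead (TGTTTAC), RUNX (TGTGGT), ETS (CCGGAAG), KLF (CCACACCC), Ikaros (TGGGAA) and NFAT (TGGAAA). In the windows printed here, Ffar2 held the Ikaros letters at 2 places and the AP-1 letters at 1, Gpr183 held the Ikaros letters at 1 place, and Gpr18 held the RUNX letters at 1 place. Of all 32851 promoter windows in the table, 25.6% held the Ikaros letters, 16.8% the RUNX letters and 7.81% the AP-1 letters. A match describes letters in the window and is not evidence that a factor binds there. The windows also differed in base composition, at 57.0% G and C for Ffar2, 44.0% for Gpr18 and 35.3% for Gpr183, against a median of 52.7% over all windows.

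Ffar2 encodes the receptor for the short-chain fatty acids that gut bacteria release, and it had the largest difference of the 10 genes. Its first probe set (1425216_at) had intensities of 41.9 and 92.6 in Nrp+ replicates 1 and 2, against 158 and 277 in Nrp- replicates 1 and 2. Both Nrp+ arrays lay below both Nrp- arrays, by 3.78-fold in replicate 1 and 2.99-fold in replicate 2. Group means were 67.3 ± 35.9 in Nrp+ cells and 218 ± 84.0 in Nrp- cells (SD, n = 2 each). On the log2 scale used throughout, with a pseudocount of 18.3 that pulls dim genes toward 0, the difference was −1.55 in replicate 1 and −1.41 in replicate 2, a mean of −1.48.

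The second Ffar2 probe set (1425215_at) had 85.7 and 61.4 in Nrp+ replicates 1 and 2, against 147 and 190 in Nrp- replicates 1 and 2. The groups did not overlap there either, and the log2 differences were −0.67 and −1.39. Ffar2 was dim: its first probe set was below the array median of 76.7 in Nrp+ replicate 1, and the size of the difference depended on the pseudocount, from −1.69 with 3.67 to −1.04 with 73.3. Of all 10192 genes, 10 had a mean difference as low as that of Ffar2 or lower, itself included. Ffar2 was chosen with the values of this contrast known, so nothing is read from that rank. Neutrophils are another known source of Ffar2 RNA, and their markers passed the filter on these arrays. The neutrophil sum was higher in Nrp+ replicate 1 than in Nrp- replicate 1, the opposite order to Ffar2. It was lower in Nrp+ replicate 2 than in Nrp- replicate 2, the same order. Of its markers, S100a9, Csf3r and, by little, Cxcr2 followed the sum in both replicate numbers. S100a8 followed it in replicate 1 and was nearly equal in replicate 2, at 21055 in Nrp+ and 21044 in Nrp- cells. Mmp8 went the other way in both. The sum was higher in replicate 2 than in replicate 1 in both groups, as was the first Ffar2 probe set, while the second Ffar2 probe set was lower in replicate 2 in Nrp+ cells. Its part in the Ffar2 values was not tested. Dendritic cell markers, 2 of 5 past the filter, summed to 244 and 269 in Nrp+ replicates 1 and 2. In Nrp- replicates 1 and 2 they summed to 295 and 557. The sum was thus lower in Nrp+ cells in both replicate numbers, as were Ffar2, Gpr18 and Gpr183. Of these markers, Xcr1, below the filter, went the other way in replicate 1, at 39.2 in Nrp+ and 37.0 in Nrp- cells. Zbtb46 was nearly equal there, at 64.1 and 64.8. Markers of CD8 T and NK cells, 3 of 5 past the filter, summed to 1004 and 1538 in Nrp+ replicates 1 and 2. In Nrp- replicates 1 and 2 they summed to 619 and 1423. Ncr1, past the filter, went against that sum in both replicate numbers, and Klrk1, below the filter, in replicate 1. The part of either list in the receptor values was not tested.

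Outside the set, 5 genes had the pattern most like that of Ffar2, by Euclidean distance over the 4 arrays between log2 values centred on each gene. They were Asb2 (distance 0.30), Pde3b (0.36), Lrr1 (0.47), Dsp (0.49) and Xkrx (0.60). Asb2 encodes a subunit of a ubiquitin ligase and Pde3b a phosphodiesterase that breaks down cyclic AMP. Asb2 differed by −1.52 and −1.44 in replicates 1 and 2, and Pde3b by −1.15 and −1.12. Genes found by likeness to a member share its direction by construction.

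Gpr18, a receptor of lymphocytes whose lipid ligand is debated, was lower in Nrp+ cells by nearly the same amount in both replicates. Its intensities were 2716 and 3198 in Nrp+ replicates 1 and 2, against 4247 and 4713 in Nrp- replicates 1 and 2. The groups did not overlap, and the means were 2957 ± 341 in Nrp+ cells and 4480 ± 330 in Nrp- cells (SD, n = 2 each). The Nrp+ value was lower by 1.56-fold in replicate 1 and by 1.47-fold in replicate 2, with log2 differences of −0.64 and −0.56. It was the steadiest of the 10 genes over replicate numbers, with an SD of the 2 differences of 0.06.

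Gpr183, also known as EBI2, is the oxysterol receptor that positions B and T cells in spleen and lymph node, and it was lower in Nrp+ cells on both of its probe sets. The brighter one (1437356_at) had 873 and 1319 in Nrp+ replicates 1 and 2, against 1124 and 1887 in Nrp- replicates 1 and 2, with log2 differences of −0.36 and −0.51. Nrp+ replicate 2 lay above Nrp- replicate 1, so these values overlapped between groups although each replicate number had the same direction. The other probe set (1457691_at) had 475 and 347 in Nrp+ replicates 1 and 2, against 807 and 751 in Nrp- replicates 1 and 2. There the groups did not overlap, and the differences of −0.74 and −1.07 were larger than those of the brighter probe set, the mean being −0.91 against −0.43. The 2 probe sets thus gave one direction and different sizes.

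Ubac2, the protein-coding neighbour of Gpr18 on the other side, had 1398 and 1399 in Nrp+ replicates 1 and 2 and 1424 and 1329 in Nrp- replicates 1 and 2, a log2 difference of −0.03 in replicate 1 and 0.07 in replicate 2. Gpr18 and Gpr183 are both well expressed by B cells, and 4 of 5 measured B cell markers lay below the filter. The B cell markers summed to 507 and 557 in Nrp+ replicates 1 and 2, against 322 and 489 in Nrp- replicates 1 and 2. Their sum was higher on the Nrp+ array in both replicate numbers, as was Cd79b, the marker past the filter, while Ms4a1 and Cd79a, both below it, were lower on the Nrp+ array in both. Their part in the values of the pair was not tested.

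**Figure D1:**
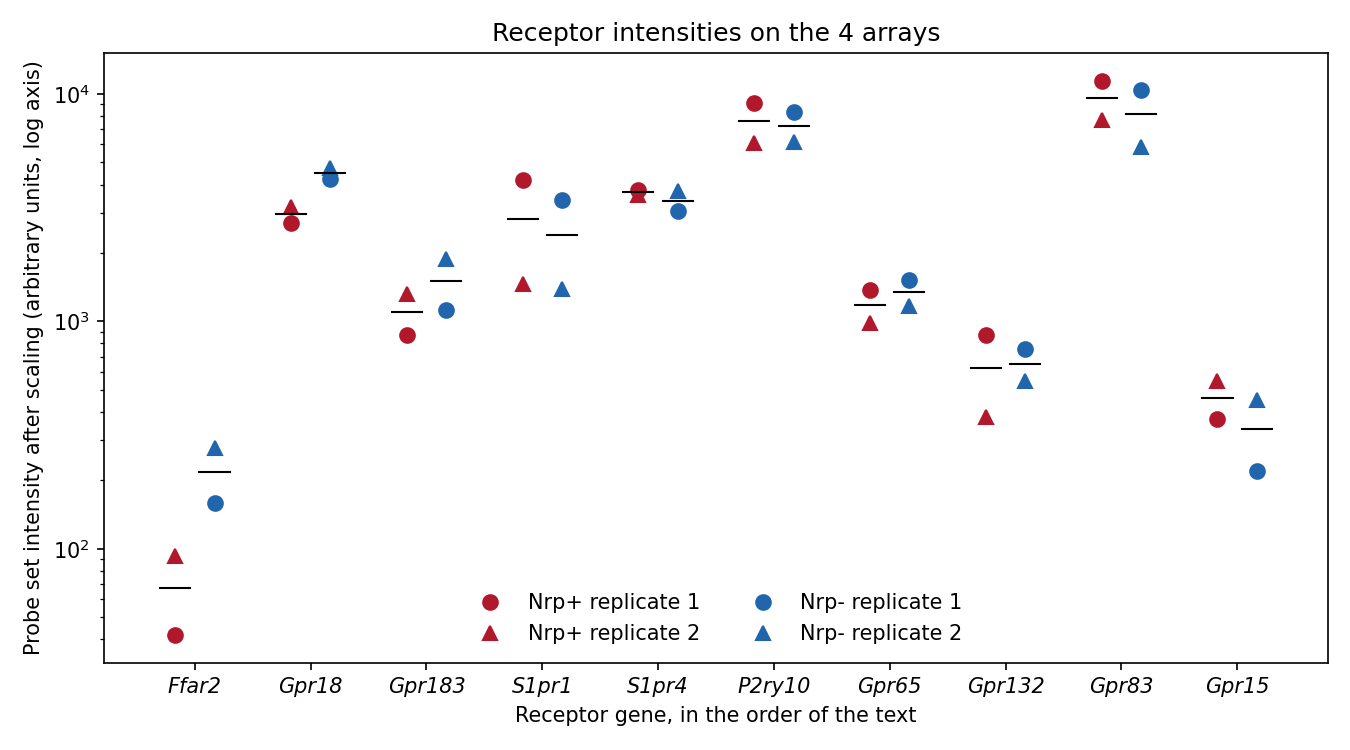
Intensity after scaling to one trimmed mean (arbitrary units, log axis) of the probe set that represents each receptor gene, with circles for replicate 1, triangles for replicate 2, Nrp+ in red, Nrp- in blue and black lines at group means. For Ffar2 and Gpr18 both Nrp+ arrays lie below both Nrp- arrays. S1pr1, Gpr83, Gpr15, Gpr183, Gpr65, Gpr132 and P2ry10 separate by replicate number, a pattern whose share over all genes was not counted. Intensities of different probe sets are not on a common scale.

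The Nrp+ and Nrp- values of the sphingosine-1-phosphate receptors overlapped. S1pr1, which guides lymphocytes out of lymphoid organs, had 4169 and 1460 in Nrp+ replicates 1 and 2, against 3423 and 1386 in Nrp- replicates 1 and 2. Its log2 differences were 0.28 and 0.07, both positive, and the groups overlapped widely, at 2814 ± 1915 in Nrp+ cells and 2405 ± 1440 in Nrp- cells (SD, n = 2 each). S1pr4, a receptor found mainly on leukocytes, had 3795 and 3603 in Nrp+ replicates 1 and 2, against 3060 and 3730 in Nrp- replicates 1 and 2. The S1pr4 differences of 0.31 and −0.05 had opposite signs. P2ry10, a receptor for lysophosphatidylserine, had 9142 and 6064 in Nrp+ replicates 1 and 2, against 8364 and 6156 in Nrp- replicates 1 and 2, with differences of 0.13 and −0.02. P2ry10b, its neighbour on the X chromosome, differed by −0.37 and −0.31.

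Of the proton-sensing family, Gpr65, which raises cyclic AMP when the medium turns acid, had 1372 and 988 in Nrp+ replicates 1 and 2, against 1517 and 1175 in Nrp- replicates 1 and 2. It was slightly lower in Nrp+ cells in both, by −0.14 and −0.25 on the log2 scale, with overlapping groups. Gpr132, tied to lysophospholipids and oxidised fatty acids, went opposite ways in the replicate numbers on both of its probe sets. The brighter one (1444233_at) had 871 and 382 in Nrp+ replicates 1 and 2, against 755 and 550 in Nrp- replicates 1 and 2, with differences of 0.20 and −0.51. The dim one (1421755_at), which did not pass the filter, had 105 and 28.8 in Nrp+ replicates 1 and 2, against 72.4 and 62.7 in Nrp- replicates 1 and 2, with differences of 0.45 and −0.78.

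Gpr83, a receptor long known as enriched in regulatory T cells, and Gpr15, a homing receptor of the large intestine, were a little higher in Nrp+ cells. The first Gpr83 probe set (1423415_at) had 11440 and 7720 in Nrp+ replicates 1 and 2, against 10460 and 5843 in Nrp- replicates 1 and 2. Its log2 differences were 0.13 and 0.40, and the second probe set (1439569_at) gave 0.22 and 0.38, so the probe sets matched in direction in both replicates. Gpr83 groups overlapped on both, with means of 9580 ± 2630 in Nrp+ cells and 8151 ± 3265 in Nrp- cells on the first (SD, n = 2 each). Gpr15 had 374 and 548 in Nrp+ replicates 1 and 2, against 220 and 451 in Nrp- replicates 1 and 2. Its differences were 0.72 and 0.27, and the Nrp+ value of replicate 1 lay below the Nrp- value of replicate 2. Izumo1r, the folate receptor family gene beside Gpr83, differed by 0.28 and 0.21.

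**Figure D2:**
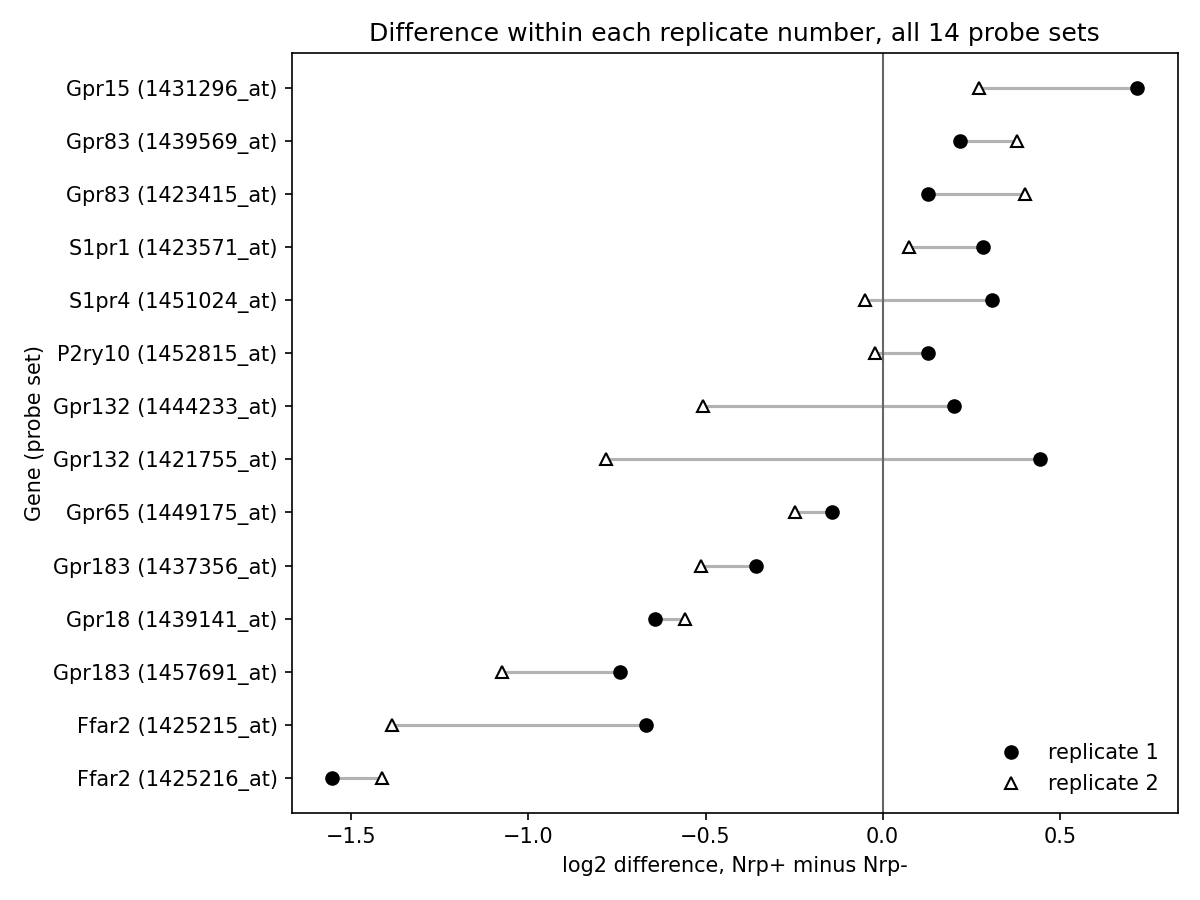
Nrp+ minus Nrp- on the log2 scale (x axis) for all 14 probe sets (y axis), with filled circles for replicate 1, open triangles for replicate 2 and a grey line joining them. The 5 lowest probe sets belong to Ffar2, Gpr183 and Gpr18 and lie left of 0 in both replicates, and both Gpr132 probe sets cross 0.

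Counted by gene, 2 of 10 receptors (Ffar2 and Gpr18) had both Nrp+ arrays below both Nrp- arrays, and 0 had them above. Over all genes tested, 9.12% had Nrp+ below and 12.0% had Nrp+ above in this way. In 4 of 10 receptors (Ffar2, Gpr18, Gpr183 and Gpr65) Nrp+ was lower within both replicate numbers, against 26.0% of all genes, and in 3 (Gpr83, Gpr15 and S1pr1) it was higher in both, against 27.9%. A difference of at least 1.5-fold on the log2(intensity + pseudocount) scale within both replicate numbers was next counted. By the probe set that represents each gene, Ffar2 alone met that rule (lower). Of all genes, 0.736% were lower and 1.10% higher by it. The other Gpr183 probe set (1457691_at), which does not represent its gene, also met the rule, at −0.74 and −1.07. With Nrp- replicate 1 counted as Nrp+, as its source name reads, the mean difference was −1.48 for Ffar2, −0.50 for Gpr18 and −0.78 for Gpr183, and its sign turned for Gpr15, Gpr65, Gpr132 and S1pr4. Since values of this contrast were known when the genes were put together, nothing is read from these counts. The median difference of the 10 receptors was −0.05, against 0.0040 over all genes, and the median absolute difference was 0.23, against 0.12 over all genes.

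**Figure D3:**
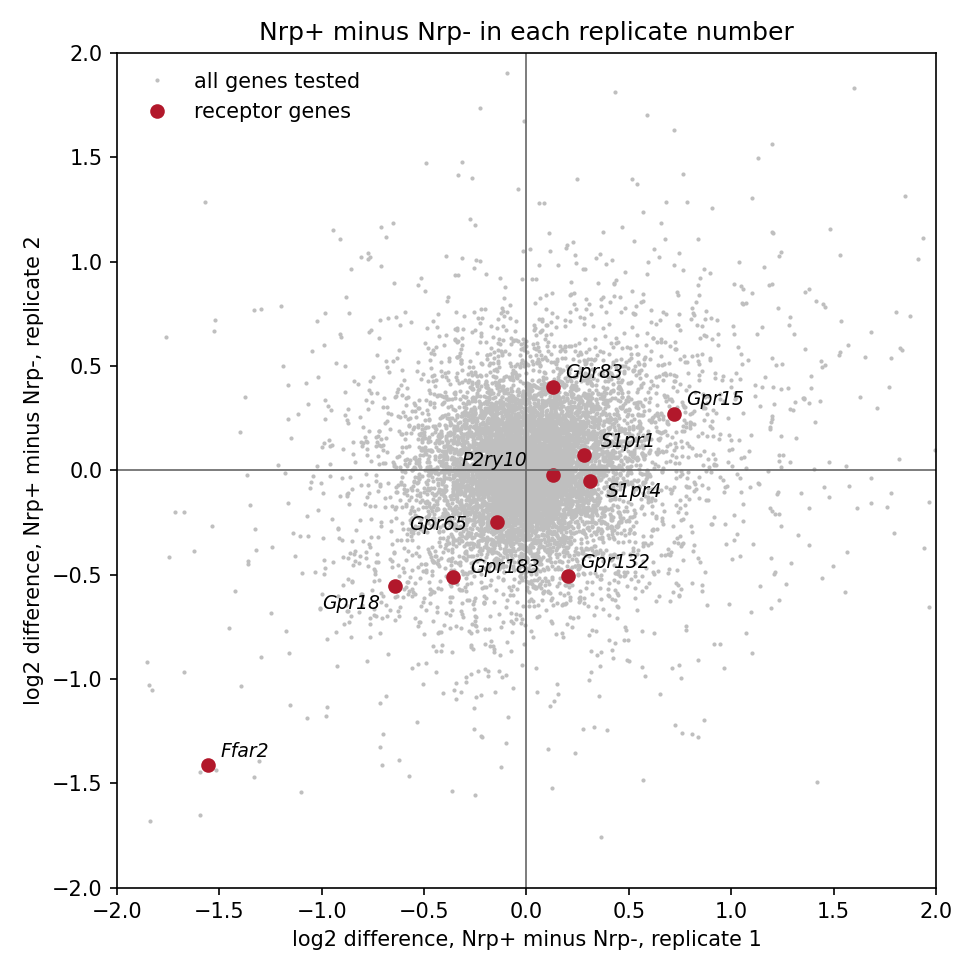
Log2 difference Nrp+ minus Nrp- in replicate 1 (x axis) and replicate 2 (y axis) for all 10192 genes tested (grey) and the 10 receptors (red), with 30 genes beyond the axes. Ffar2 lies at −1.55 and −1.41, Gpr18, Gpr183 and Gpr65 lie in the same quadrant nearer the centre, and Gpr15 lies at 0.72 and 0.27.

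For several receptors the replicate numbers differed more than the groups, and the share of all genes that did so was not counted. S1pr1 was lower on the arrays numbered 2 than on those numbered 1, by −1.50 in Nrp+ cells and −1.29 in Nrp- cells. The 5th to 95th percentile range over all genes was −0.78 to 0.88 in Nrp+ cells and −0.88 to 1.05 in Nrp- cells, so S1pr1 lay outside it in both groups. Gpr132 lay outside it in Nrp+ cells alone, at −1.15 against −0.45 in Nrp- cells, and Gpr83 was at −0.57 and −0.84, inside the range. The first Ffar2 probe set was higher on the arrays numbered 2, by 0.88 in Nrp+ cells and 0.74 in Nrp- cells, but the second was at −0.38 in Nrp+ and 0.33 in Nrp- cells. The brighter Gpr183 probe set was at 0.59 in Nrp+ and 0.74 in Nrp- cells, and the other at −0.43 in Nrp+ and −0.10 in Nrp- cells, so the probe sets of Ffar2 and of Gpr183 did not share a direction between replicate numbers. Gpr15, with 1 probe set, was higher on the arrays numbered 2, by 0.53 in Nrp+ and 0.98 in Nrp- cells. Beside these values, the ratio of the Gapdh control probe sets at the 3′ and 5′ ends was 1.54 and 0.711 in Nrp+ replicates 1 and 2. It was 1.74 and 0.763 in Nrp- replicates 1 and 2. The same ratio of the beta-actin control moved less, at 1.59 and 1.18 in Nrp+ replicates 1 and 2. In Nrp- replicates 1 and 2 the beta-actin ratio was 1.76 and 1.26. The part of either ratio in the receptor values was not tested.

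**Figure D4:**
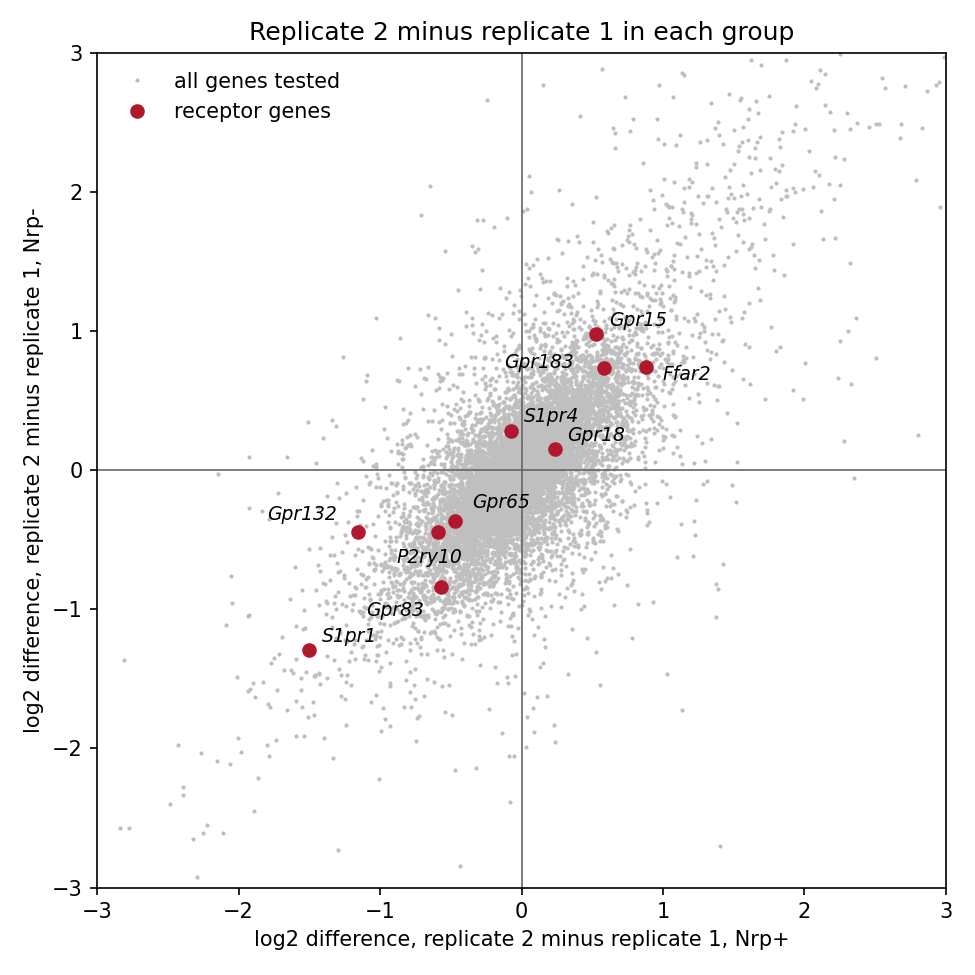
Log2 difference replicate 2 minus replicate 1 in Nrp+ cells (x axis) and in Nrp- cells (y axis) for all 10192 genes tested (grey) and the 10 receptors (red), each by the probe set that represents it, with 42 genes beyond the axes. S1pr1 is the receptor farthest from the centre, at −1.50 and −1.29, and Ffar2, Gpr183, Gpr15 and Gpr18 lie in the opposite quadrant.

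Other genes of these receptor families and of their ligand and signalling pathways were taken from 8 lists by role, with 107 genes that are not members, of which 60 were tested. In limma, 0 of the 60 passed at an adjusted p under 0.05 without a block, where 2 had an unadjusted p under 0.05, and 0 passed with the replicate number as a block, where 11 did. Over all genes limma called 0 without a block, with 146 of 10192 at an unadjusted p under 0.05. With the block 877 of 10192 had an unadjusted p under 0.05, and 0.285% were called higher and 0.167% lower. Nothing in the labels says that arrays of a group come from separate mice, though Xist was 83.2 and 13630 in Nrp+ replicates 1 and 2. These p-values measure only the spread between arrays, pooled over genes by limma. With the block, each gene had 1 residual degree of freedom beside 7.88 prior ones drawn from all genes. The standard errors with the block given below share that pooling. The median difference of the 60 genes was 0.02. Their groups did not overlap in 7 genes with Nrp+ above and in 2 with Nrp+ below, against 12.0% and 9.12% of all genes.

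Of the 12 other genes of sphingosine-1-phosphate sensing and turnover, 6 were tested, with a median of −0.0027. Sphk2, a kinase that makes the lipid, differed by 0.13, and Cers2, a ceramide synthase, by −0.04. Of 4 genes for oxysterol ligands, Hsd3b7, which encodes the enzyme that degrades the Gpr183 ligand, was tested. It had 325 and 328 in Nrp+ replicates 1 and 2, against 224 and 266 in Nrp- replicates 1 and 2. The groups did not overlap, with a difference of 0.39 ± 0.21 (standard error with the block, limma adjusted p = 0.666). Of the 11 other fatty acid and metabolite receptors 1 was tested (Gprc5a, at 0.45 and −0.48), and Ffar3, the gene beside Ffar2 for a related fatty acid receptor, had no probe set listed alone. Of the 2 other proton-sensing receptors 0 were tested.

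Of 28 other receptors for lysophospholipids, eicosanoids and cannabinoids, 14 were tested, with a median of 0.04 and 4 genes whose Nrp+ values lay above the Nrp- values, against 12.0% of all genes. Ptger2, a prostaglandin E2 receptor that raises cyclic AMP, had 1571 and 1236 in Nrp+ replicates 1 and 2, against 845 and 985 in Nrp- replicates 1 and 2. Its difference was 0.60 ± 0.15 (standard error with the block, pooled over genes, limma adjusted p = 0.189), at 0.88 in replicate 1 and 0.32 in replicate 2. Cysltr2, a leukotriene receptor, was dim, at 81.9 and 137 in Nrp+ replicates 1 and 2 against 47.3 and 72.9 in Nrp- replicates 1 and 2, a difference of 0.69. Of 15 other orphan and adhesion receptors 7 were tested, with a median of 0.01. Gpr171 differed by −0.27 and Gpr137b by 0.26.

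Of 27 G proteins, arrestins, receptor kinases and RGS proteins, 24 were tested, with a median of 0.07. Gprin3, which encodes a protein of G-protein signalling, had 738 and 379 in Nrp+ replicates 1 and 2, against 304 and 213 in Nrp- replicates 1 and 2. Its difference was 1.01 ± 0.20 (standard error with the block, limma adjusted p = 0.0877), at 1.23 in replicate 1 and 0.78 in replicate 2. Gprin3 did not pass in limma without the block either. With the block but no mean-variance trend, the lowest limma adjusted p over all genes was 0.402. Gna15, a G-protein alpha subunit gene that lies beside S1pr4, differed by 1.43 and 0.33. Of 8 partners of S1pr1 in egress and retention 7 were tested, with a median of −0.07. Itgae, the integrin alpha chain of tissue-resident cells, differed by 0.99 and 0.04, and Dnm2, the dynamin that internalises S1pr1, by −0.59 and −0.43. Klf2, the transcription factor that drives S1pr1, differed by 0.18 and 0.25, and Cd69, whose protein pulls S1pr1 from the surface, by −0.16 and −0.34; both were picked for their role after their values were seen.

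With quantile normalisation and the block, an alternative chosen after seeing the data, 3 of the 60 genes passed in limma where 1.02% of all genes were called higher and 0.609% lower. Gprin3 was higher at 0.97 (adjusted p = 0.0148), and Gng2, a G-protein gamma subunit gene, at −0.74 (adjusted p = 0.0213) and Ccr7, the chemokine receptor of lymph node entry, at −0.49 (adjusted p = 0.012) were lower. Gng2 and Ccr7 are named because the count is small, after their values were seen. Without quantile normalisation their adjusted p in limma with the block was 0.0877 for Gprin3, 0.119 for Gng2 and 0.0954 for Ccr7.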

How the data were processed

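Total RNA of 4 samples was extracted with Trizol and measured on Affymetrix arrays with a biotin label, per the labels. The authors deposited linear intensities, 1 for each probe set, and MAS5 is the tool that the submitters' processing notes name. Its version and settings: not given in the sources used here. The mean after trimming 2% at each end was 500.003 on both arrays numbered 1 and 150.001 on both numbered 2, so those numbered 2 were multiplied by 3.33 to bring all to 500. Values were analysed as log2(intensity + 18.3), the pseudocount being 0.25 of the mean array median. Of 45101 probe sets, 64 were controls, 34945 had 1 gene in the platform annotation, 932 several and 9160 none. The filter kept probe sets whose mean log2 level reached percentile 50, and a gene stands for its highest one. The test across genes was that of limma 3.58.1, run in R 4.3.3 (mean-variance trend, two-sided, Benjamini-Hochberg at 0.05), checked on simulated data. The main test has no block. Replicate numbers pair arrays through the shared scaling, so blocked results stand beside it. Correlations across genes were 0.980 and 0.984 between arrays of one replicate number and 0.956 and 0.941 between arrays of one group. The number of arrays limits the precision.

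The members and lists were chosen with earlier results of these data known. All 10 members are named. Pathway genes are named if they pass with the block or have 1 of the 2 largest differences of their list with one direction in both replicates, as are the 5 genes nearest to Ffar2, Nrp1, Xist and the cell type markers. Genes beside a member, Gprc5a, Klf2, Cd69, Gng2 and Ccr7 were named after their values were seen. Alternatives were quantile normalisation, pseudocounts of 3.67 and 73.3, probe sets averaged per gene, no filter, a filter at percentile 70, the block with and without the trend, each array left out, and Nrp- replicate 1 counted as Nrp+. Drawings used matplotlib 3.10.9.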

Additional observations from a re-analysis of the deposited data

How the results depend on the processing

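All 10 receptors kept the sign of their mean difference under the 4 alternatives of quantile normalisation, either pseudocount and the mean of probe sets. The mean of probe sets cannot change a gene with 1 probe set past the filter. For Gpr132, S1pr4 and P2ry10 the mean difference is over replicate numbers of opposite sign. Ffar2 ranged from −1.69 to −1.04, Gpr18 from −0.60 to −0.59 and Gpr183 from −0.67 to −0.42. With 1 array left out, replicate number and group mix, and 4 of 10 kept their sign over all of these fits (Ffar2 from −1.92 to −1.04, Gpr18 from −0.72 to −0.48, Gpr183 from −0.80 to −0.07 and Gpr15 from 0.0067 to 0.98), while S1pr1 ran from −0.57 to 0.93. The receptors' median ran from −0.34 to 0.20 and the count with groups that do not overlap from 5 to 8, as fewer arrays overlap less. With Nrp- replicate 1 counted as Nrp+, which leaves 1 array in the other group, that count was 5. The shares over all genes under these settings were not counted, so nothing is read from these counts. With that relabelling, Ffar2 was −1.48, Gpr18 −0.50 and Gpr183 −0.78. The sign turned for Gpr15 (−0.32), Gpr65 (0.11), Gpr132 (0.20) and S1pr4 (−0.10). Limma with the replicate block called 46 genes, and with the block and quantile normalisation 166 genes, 3 of them on the pathway lists; leaving out an array gave 0 to 1. With the block but no mean-variance trend 0 were called, with 868 at an unadjusted p under 0.05. The replicate block gave the same 0 calls for the pathway lists. The cause of these differences was not tested.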
